A study of Mus musculus with 6 samples.

Results

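The 10 genes described here serve megakaryocytes and platelets in adhesion and granules, or mark platelet-biased haematopoietic stem cells (HSCs), and were measured in HSCs sorted by a mitochondrial dye. They are Itga2b, Itgb3, Gp1bb, Gp9, Gp6, Pf4, Ppbp, Vwf, Selp and Clu, 10 of the 28786 mouse gene IDs in the count table. They were chosen by name from what the genes are known to do, with earlier results of these data known. The dye, TMRM, collects in mitochondria according to their membrane potential, and the labels give 3 libraries of TMRM_High and 3 of TMRM_Low cells. Bone marrow of 6- to 8-week-old C57BL/6 animals, all of wild type, gave the 6 libraries, and the labels list no treatment or altered allele in either group. Each held 1500 cells sorted as negative for lineage markers and CD48 and positive for Sca-1, c-Kit and CD150, amplified by 13 cycles of PCR. The labels do not say whether each library is a mouse of its own, so p-values reflect the spread among these libraries alone, which may be technical. Levels are given as counts per 1000000 counts of a library (CPM).

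Genes of the gate, looked up after the other values were seen, did not all follow it. Ly6a, which encodes the Sca-1 that all sorted cells should carry, was at 28.2, 30.3 and 32.6 CPM in TMRM_High and at 163, 163 and 176 CPM in TMRM_Low libraries, and it fell (log2 fold change -2.47, SE 0.103, edgeR adjusted p = 1.01e-05). Cd48, whose product the gate leaves out, was at 147 ± 2.82 and 137 ± 22.6 CPM, and Kit at 263 ± 4.93 and 248 ± 53.9 CPM, and neither passed. Slamf1, the CD150 gene, was at 5.53 ± 0.569 and 5.13 ± 3.98 CPM. Markers of granulocytes and B cells were also higher in TMRM_High libraries, as given further on, and the part of either in the results on platelet genes was not tested.

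Platelets are shed by megakaryocytes, large marrow cells that arise from HSCs, in part through a route that skips other progenitors. Some HSCs already carry RNA of platelet genes, and those marked by Vwf are known to favour platelet output in mice. The integrin subunits of Itga2b and Itgb3 form the fibrinogen receptor, Gp1bb and Gp9 belong to the receptor for von Willebrand factor, and Gp6 is the collagen receptor. Pf4, Ppbp, Vwf and Selp encode proteins stored in platelet alpha granules, and Clu encodes clusterin, a secreted chaperone. Itga2b, known as CD41, is also made early in blood development, and Vwf and Selp are made by endothelial cells as well.

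Of the 10 genes, 2 rose in TMRM_High libraries, Pf4 about 7.24-fold and Itga2b about 2.35-fold, and Clu fell. The other 6 that could be tested did not pass, and Gp6 was too rare to test. With edgeR's quasi-likelihood test and Benjamini-Hochberg adjustment, 5.84% of the 13662 genes tested were called higher and 5.12% lower at an adjusted p below 0.05. Every TMRM_High library was above every TMRM_Low library for 5 of the 9 tested genes and below for 1, against 18.4% and 17.0% of all genes tested. Ppbp, Vwf and Gp1bb, which did not pass, were uneven among the TMRM_Low libraries, by 11.7-fold or more between the highest and the lowest. A bulk library cannot tell fewer cells with a transcript from less of it per cell.

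The stretch before the start site is shown for Pf4 and Itga2b, which rose, and for Ppbp and Gp9, which did not pass, because Ppbp is the close neighbour of Pf4 and Gp9 a partner in platelet adhesion. RefSeq start sites on GRCm38.p6 were found for 7 of the 10 genes, all but Vwf, Clu and Itgb3. Each sequence gives the 250 bases before the start, 5′ to 3′ on the strand of the gene, and capitals mark the word AGGAAG or the word CGGAAG, with the core bound by ETS factors such as Fli1, on either strand. Words with the core bound by GATA factors are marked too, on either strand: AGATAA or AGATAG or TGATAA or TGATAG.
Pf4: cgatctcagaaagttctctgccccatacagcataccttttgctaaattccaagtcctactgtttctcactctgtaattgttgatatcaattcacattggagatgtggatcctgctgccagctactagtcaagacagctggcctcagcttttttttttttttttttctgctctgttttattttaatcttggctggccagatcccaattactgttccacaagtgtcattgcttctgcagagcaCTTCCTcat
Itga2b: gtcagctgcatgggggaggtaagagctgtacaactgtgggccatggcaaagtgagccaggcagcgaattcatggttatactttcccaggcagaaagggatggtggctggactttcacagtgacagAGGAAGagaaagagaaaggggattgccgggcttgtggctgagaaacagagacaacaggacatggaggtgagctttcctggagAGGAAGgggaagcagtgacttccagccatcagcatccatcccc
Ppbp: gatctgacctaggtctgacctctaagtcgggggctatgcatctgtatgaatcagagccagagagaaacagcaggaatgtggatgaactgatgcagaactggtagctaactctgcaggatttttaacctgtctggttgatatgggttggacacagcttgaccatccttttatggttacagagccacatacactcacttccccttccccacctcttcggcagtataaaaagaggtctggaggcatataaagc
Gp9: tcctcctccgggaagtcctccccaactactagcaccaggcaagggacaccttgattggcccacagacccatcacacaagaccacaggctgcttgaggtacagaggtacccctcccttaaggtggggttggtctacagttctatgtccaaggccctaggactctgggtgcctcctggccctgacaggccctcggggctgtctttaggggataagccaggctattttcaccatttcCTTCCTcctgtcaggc
The Pf4 stretch lies at chr5:90772185-90772434, plus strand, and the Itga2b stretch at chr11:102469884-102470133, minus strand. The Ppbp stretch lies at chr5:90768268-90768517, plus strand, and the Gp9 stretch at chr6:87777820-87778069, plus strand. An ETS word was found in 5 of the 7 stretches, those of Pf4, Itga2b, Gp1bb, Gp9 and Selp, against 39.2% of 32851 stretches of the same length, and it began 9 bases before the start in Pf4 and 16 in Gp9. Itga2b held 2, which began 125 and 43 bases before the RefSeq start. That start lies inside the GENCODE span of the gene, which begins at 102470122 on the minus strand, so both words fall within that span. A GATA word was found in 2, those of Gp1bb and Gp6, against 26.5%. The word TATAAA, searched on both strands and not capitalised, stood in that of Ppbp alone, 30 and 8 bases before the start, against 12.4%. These are matches of letters and say nothing of binding.

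**Figure D1:**
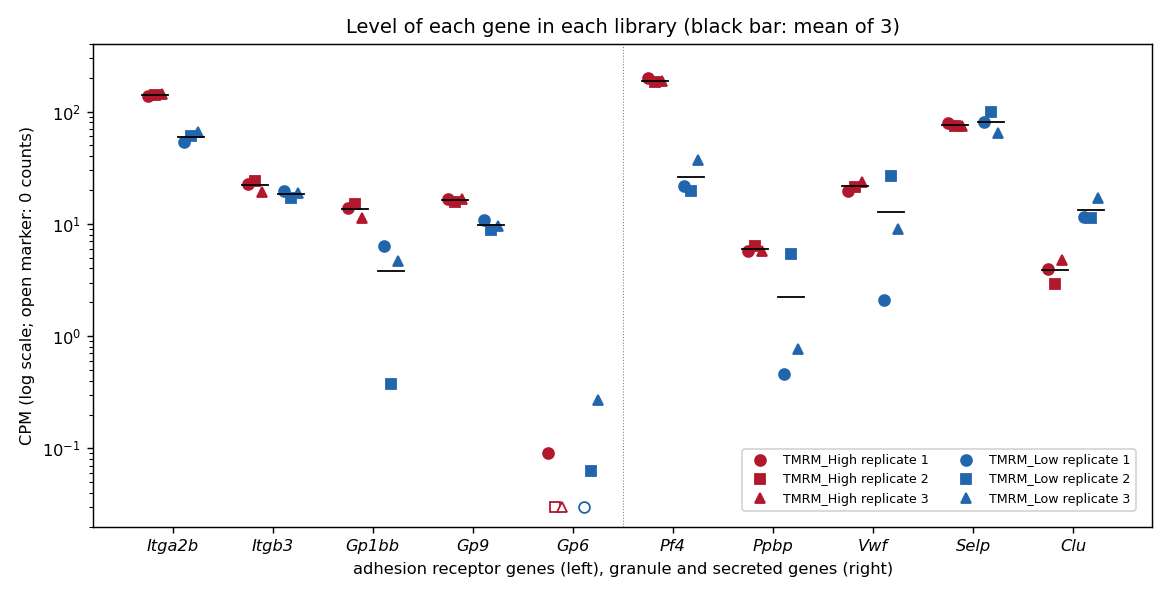
CPM of the 10 genes (log axis) in the 3 TMRM_High (red) and 3 TMRM_Low libraries (blue), with a black bar at each mean and open markers at 0 counts. Pf4 and Itga2b lie higher in every TMRM_High library and Clu lower, while Vwf and Ppbp of TMRM_Low replicate 2 lie near the TMRM_High libraries.

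The genes were first compared among themselves, as CPM divided by the kilobases of exon. In TMRM_High libraries Pf4 stood far above the others at 261.8 ± 10.8 CPM per kilobase (SD, n = 3), ahead of Itga2b at 25.8 ± 0.665. Gp9 (18.5 ± 0.724) and Selp (17.2 ± 0.690) overlapped with each other, as did Gp1bb (6.43 ± 0.906) and Ppbp (5.51 ± 0.319). Itgb3 followed at 3.73 ± 0.448, and Vwf (1.34 ± 0.134) and Clu (1.13 ± 0.263) overlapped at the lower end. In TMRM_Low libraries Pf4 still led at 36.1 ± 12.9, followed by Selp at 18.4 ± 3.80, with Gp9 (11.1 ± 1.15) and Itga2b (11.0 ± 1.11) overlapping. Clu (3.85 ± 0.985) and Itgb3 (3.15 ± 0.228) came next, and neighbours from Clu down overlapped, through Ppbp (2.05 ± 2.57), Gp1bb (1.81 ± 1.47) and Vwf (0.787 ± 0.798). Gp6 was last in both groups. With the length of the longest transcript instead, Selp stood above Gp9 in TMRM_High libraries and Itga2b above Gp9 in TMRM_Low libraries.

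Of the fibrinogen receptor's subunits, the alpha subunit gene rose and the beta subunit gene did not pass. Itga2b (ENSMUSG00000034664, chromosome 11, 102453297 to 102470122 on GRCm38) was at 137, 141 and 144 CPM in the TMRM_High libraries and at 53.5, 60.7 and 65.5 CPM in the TMRM_Low libraries. All TMRM_High libraries were more than 2 times the highest TMRM_Low library. Its log2 fold change was 1.23 (SE 0.106, edgeR adjusted p = 0.00038), and it kept its call with any 1 library left out but not with the TMRM_High libraries summed into 1 (adjusted p = 0.095). Itgb3 (ENSMUSG00000020689, chromosome 11, 104608000 to 104670476), whose product pairs with that of Itga2b on platelets and with another alpha subunit elsewhere, was at 22.6, 24.3 and 19.1 CPM against 19.7, 17.1 and 18.9 CPM. These groups overlapped, with a log2 fold change of 0.24 (SE 0.210, edgeR adjusted p = 0.53). The ratio of Itga2b to Itgb3 counts within a library was 6.06, 5.81 and 7.56 in TMRM_High and 2.71, 3.55 and 3.47 in TMRM_Low libraries. The groups of ratios did not overlap, and the exact two-sided permutation p of 0.1 is the smallest that 3 against 3 libraries allow (0.2 adjusted over the 4 ratios computed).

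The receptor for von Willebrand factor is built from the products of Gp1ba, Gp1bb, Gp9 and Gp5, and none of these genes passed the test. Gp9 (ENSMUSG00000030054, chromosome 6, 87778072 to 87779768) was at 16.7, 15.5 and 16.6 CPM in TMRM_High and 10.8, 8.80 and 9.63 CPM in TMRM_Low libraries. It was higher in every TMRM_High library, but its log2 fold change of 0.74 (SE 0.251) did not pass in edgeR (adjusted p = 0.11) and passed in DESeq2 (adjusted p = 0.012). Gp1bb (ENSMUSG00000050761, chromosome 16, 18620317 to 18622403) was at 14, 15 and 11.3 CPM against 6.31, 0.374 and 4.63 CPM, 1.83 higher on the log2 scale (SE 0.790, edgeR adjusted p = 0.20). Here 1 library set the spread: TMRM_Low replicate 2 held 6 counts, with a 95% exact Poisson interval of 2.20 to 13.1 for counting error only, where replicates 1 and 3 held 109 and 85. Without that library Gp1bb was called (log2 fold change 1.30, edgeR adjusted p = 0.036), and limma voom called it with all libraries (2.58, adjusted p = 0.047).

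Counts of Gp1bb are uncertain in another way. The gene overlaps Sept5, a septin gene on the same strand that is named here for this overlap alone, and 91.5% of its 31-base words are also found in transcripts of other genes, so reads were divided between them. Sept5 itself was at 2.00, 2.56 and 1.94 CPM against 2.31, 1.06 and 0 CPM. Counted as 1 gene, an alternative chosen after the data were seen, the pair was at 16.0, 17.5 and 13.3 CPM against 8.62, 1.44 and 4.63 CPM, still higher in every TMRM_High library and still not passing (log2 fold change 1.67, SE 0.582, edgeR adjusted p = 0.12). The ratio of Gp1bb to Gp9 counts was 0.837, 0.964 and 0.682 against 0.583, 0.0426 and 0.480, with the same permutation p as the integrin ratio.

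The remaining receptor subunits, named after their values were seen, were uneven among TMRM_Low libraries as well. Gp1ba, the subunit that binds the ligand, was at 5.94, 6.21 and 5.62 CPM against 6.60, 2.81 and 0.925 CPM. Gp5, the outer subunit, was at 14.5, 14.5 and 13.1 CPM against 9.37, 3.00 and 14.3 CPM. The lowest TMRM_Low library was thus replicate 2 for Gp1bb, Gp9 and Gp5 and replicate 3 for Gp1ba, and both Gp1ba (log2 fold change 0.78, SE 0.672, edgeR adjusted p = 0.53) and Gp5 (0.65, SE 0.514, adjusted p = 0.49) overlapped between the groups.

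Gp6, the collagen receptor gene (ENSMUSG00000078810, chromosome 7, 4363965 to 4397744), had 2, 0 and 0 counts in TMRM_High and 0, 1 and 5 counts in TMRM_Low libraries. The limit that a count of 0 allows is 3 counts, or 0.136 to 0.208 CPM over the 6 libraries, so a difference was not detectable at this depth. Fcer1g, which encodes the signalling chain that Gp6 protein needs, was plentiful at 103 ± 1.95 and 109 ± 10.7 CPM and did not pass. Fcer1g is shared with Fc receptors of myeloid cells.

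**Figure D2:**
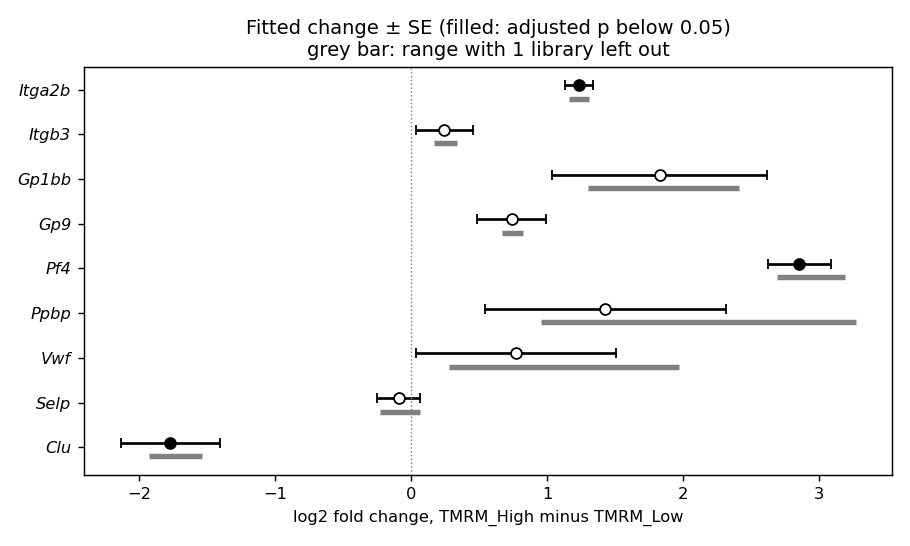
Fitted log2 fold change of the 9 tested genes (points, bars are the SE, filled where called) and the range with 1 library left out (grey). The points of Pf4, Itga2b and Clu are filled, and the grey bars of Ppbp, from 0.96 to 3.27, and Vwf, from 0.27 to 1.97, are the longest.

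Among the alpha granule chemokine genes, Pf4 had the largest change of the 9 tested genes, and its neighbour Ppbp did not pass. Pf4 (platelet factor 4, ENSMUSG00000029373, chromosome 5, 90772435 to 90773383) was at 197, 182 and 188 CPM in TMRM_High and at 21.9, 19.5 and 36.7 CPM in TMRM_Low libraries. The lowest TMRM_High library was thus almost 5 times the highest TMRM_Low library. The log2 fold change was 2.86 (SE 0.234, edgeR adjusted p = 0.00035), between 2.69 and 3.19 over all alternatives, and Pf4 was called in each of them, including the one that sums the TMRM_High libraries into 1 (adjusted p = 0.016).

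Ppbp, which encodes pro-platelet basic protein (ENSMUSG00000029372, chromosome 5, 90768518 to 90770063), ends 2371 bases before Pf4 starts, on the same strand. It was at 5.76, 6.36 and 5.76 CPM against 0.463, 5.43 and 0.762 CPM. TMRM_Low replicate 2 held 87 counts (95% exact Poisson interval 69.7 to 107), and replicates 1 and 3 held 8 (3.45 to 15.8) and 14 (7.65 to 23.5), so these libraries differed beyond counting error. The log2 fold change of 1.43 (SE 0.886) did not pass in edgeR (adjusted p = 0.37). Without TMRM_Low replicate 2 it was 3.27 and passed (adjusted p = 0.011). The ratio of Pf4 to Ppbp counts was 34.2, 28.6 and 32.5 in TMRM_High libraries and 47.2, 3.60 and 48.2 in TMRM_Low libraries, so that TMRM_Low replicate 2 alone lay below the TMRM_High range and the others above it (exact two-sided permutation p = 1.0, adjusted 1.0).

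Vwf and Selp, whose products share alpha granules in platelets and storage bodies in endothelium, did not pass. Vwf (von Willebrand factor, ENSMUSG00000001930, chromosome 6, 125546774 to 125686679) was at 19.5, 21.4 and 23.7 CPM in TMRM_High and at 2.08, 26.9 and 8.93 CPM in TMRM_Low libraries. TMRM_Low replicate 2 was the highest of all 6 libraries and replicate 1 the lowest, from 431 counts (95% exact Poisson interval 391 to 474) and 36 (25.2 to 49.8). The log2 fold change was 0.77 (SE 0.735, edgeR adjusted p = 0.57), and it was 1.97 without TMRM_Low replicate 2 (adjusted p = 0.080) and 0.27 without TMRM_Low replicate 1. Selp (P-selectin, ENSMUSG00000026580, chromosome 1, 164115264 to 164150026) was the steadiest of the granule genes, at 79.6, 73.9 and 74.8 CPM against 80.7, 98.1 and 64.6 CPM, with a log2 fold change of -0.09 (SE 0.159, edgeR adjusted p = 0.77). Of its 31-base words 12.5% are shared with other genes, mostly antisense ones, and without strand such reads cannot be told apart. The ratio of Vwf to Selp counts overlapped between the groups (0.245, 0.290 and 0.318 against 0.0258, 0.274 and 0.138, exact two-sided permutation p = 0.2, adjusted 0.267).

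Clu went the other way. Clusterin RNA, known to be raised in platelet-biased and aged HSCs (ENSMUSG00000022037, chromosome 14, 65968483 to 65981547), was at 3.99, 2.92 and 4.72 CPM in TMRM_High and at 11.4, 11.2 and 17.1 CPM in TMRM_Low libraries, and the groups did not overlap. Its log2 fold change was -1.77 (SE 0.365, edgeR adjusted p = 0.022), 3.41-fold lower in TMRM_High libraries. The call rested on 57 to 88 counts in each TMRM_High library and was lost without TMRM_High replicate 1 (adjusted p = 0.12), 2 (0.14) or 3 (0.094).

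**Figure D3:**
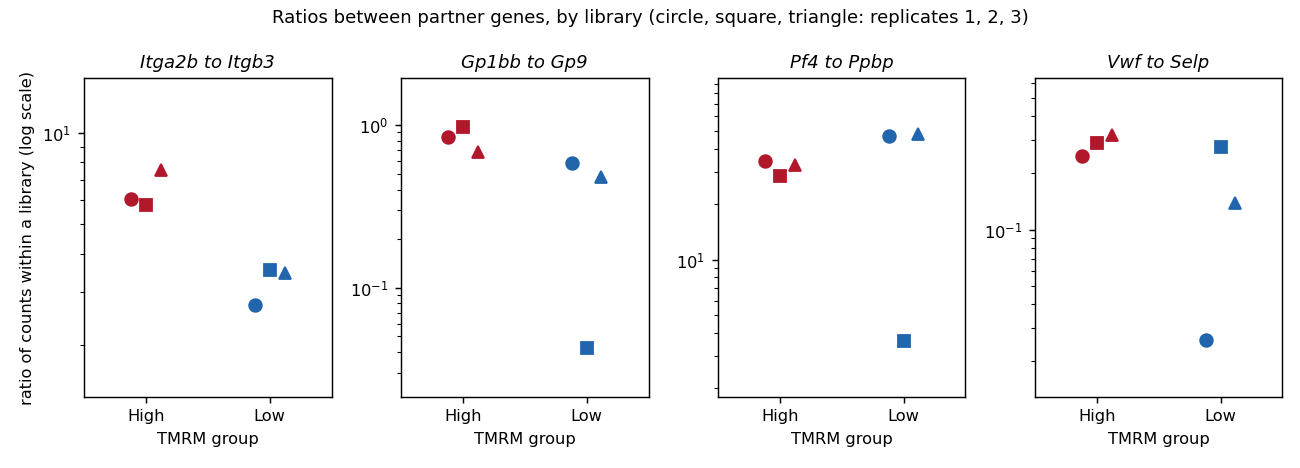
Ratio of counts between 4 pairs of genes within each library (log axes, each panel with its own scale), TMRM_High in red and TMRM_Low in blue. The Itga2b to Itgb3 ratio runs from 5.81 to 7.56 in TMRM_High and from 2.71 to 3.55 in TMRM_Low libraries, and TMRM_Low replicate 2 (square) stands apart for Gp1bb to Gp9 and Pf4 to Ppbp.

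The spread within a group differed by gene. Among TMRM_Low libraries the coefficient of variation was 126% for Ppbp, 101% for Vwf and 81.1% for Gp1bb, where the median was 23.8% over the 11226 tested genes whose counts averaged 50 or more. It was 35.8% for Pf4, 25.6% for Clu, 20.6% for Selp and between 7.23% and 10.4% for Itgb3, Itga2b and Gp9. In TMRM_High libraries it ran from 2.57% for Itga2b to 23.3% for Clu, against a median of 6.61%. No 1 TMRM_Low library was low for all: each of the 3 was the highest of its group for 3 of the 9 tested genes, and replicates 1, 2 and 3 were the lowest for 3, 5 and 1. TMRM_High libraries resembled each other far more than TMRM_Low libraries did over all genes too, with a chi-square per degree of freedom of 4.06 to 7.11 against 48.4 to 54.4, where counting noise gives about 1. Library totals were 14269936 to 22070478 counts.

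The count of called genes among the 9 moved with the setting, and so did the share over all genes tested. DESeq2 called 3 higher and 1 lower, where it called 9.69% and 9.79% of all genes, and limma voom also called 3 and 1 (5.94% and 6.45% of all). With edgeR and without TMRM_Low replicate 2, Pf4, Itga2b, Ppbp and Gp1bb were higher and Clu lower (8.64% and 7.54% of all). Without TMRM_Low replicate 1 (8.67% and 6.97%) or 3 (9.99% and 8.39%), and with the replicate number as a block (4.26% and 3.29%), the count was 2 and 1. Without TMRM_High replicate 1 (1.82% and 1.41%), 2 (1.92% and 1.35%) or 3 (1.77% and 1.28%) it was 2 and 0, with Clu below an unadjusted p of 0.05 each time. With the TMRM_High libraries summed, Pf4 alone was called (0.525% higher and 0.223% lower of all), and no gene of the 9 was lower at an unadjusted p below 0.05.

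The wider platelet programme moved in both directions. Of 140 tested genes in 6 lists of platelet, megakaryocyte and platelet-biased HSC genes, with the 10 genes above left out, 23 were higher, 15 lower and 102 did not pass, or 16.4% and 10.7% against 5.84% and 5.12% of all genes tested. Their median log2 fold change was 0.06, against -0.03 over all genes tested. Without TMRM_High replicate 1, 2 or 3 the numbers were 10, 12 or 11 higher and 6, 7 or 6 lower, and with the TMRM_High libraries summed they were 3 and 0 (22 and 10 at an unadjusted p below 0.05). Over all genes tested the shares without TMRM_High replicate 1, 2 or 3 fell too, to 1.82%, 1.92% or 1.77% higher and 1.41%, 1.35% or 1.28% lower. Esam, F2rl3, F13a1, Igf1, Fli1, Gata1, Flna, Syk, Rasgrp2 and Tec passed with all libraries. They did not pass when TMRM_High replicate 1, 2 or 3 was left out. Flna and Gata1 also did not pass without TMRM_Low replicate 2, Mafg without TMRM_High replicate 1, and Tuba4a without TMRM_High replicate 1 or 3.

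**Figure D4:**
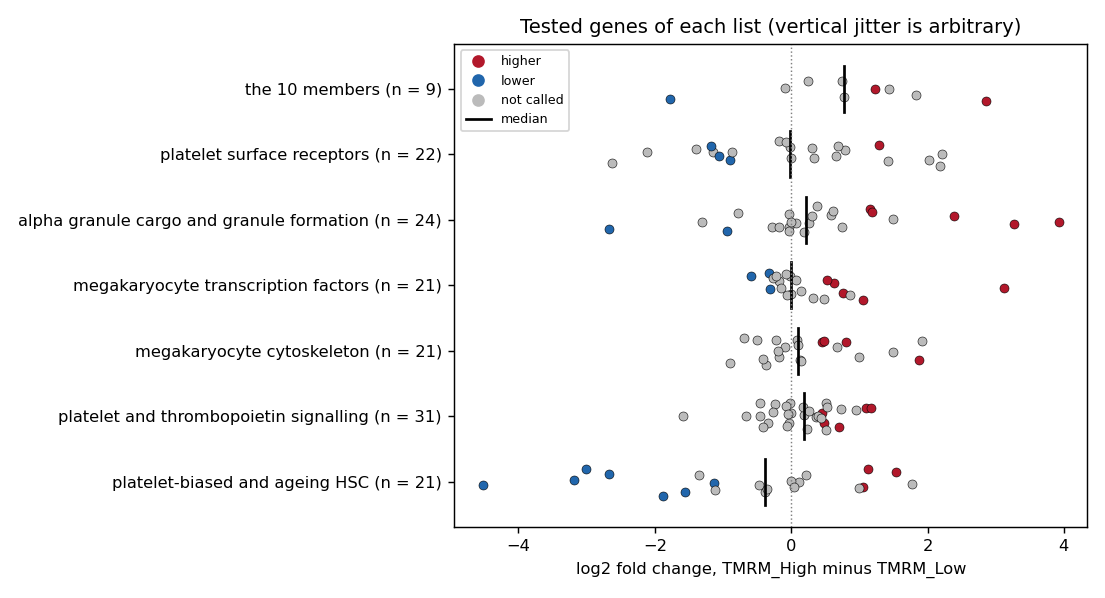
Fitted log2 fold change of the tested genes of each list, coloured where called higher (red) or lower (blue), with the list's median as a black line. Called genes lie on both sides of 0 in the receptor, granule, transcription factor and HSC lists, and, with all 6 libraries, on the higher side alone in the cytoskeleton and signalling lists.

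Of 22 tested platelet receptor genes 1 rose, 3 fell and 18 did not pass (median log2 fold change -0.01). These are 4.55% higher and 13.6% lower, against 5.84% and 5.12% of all genes tested. Cd9, a tetraspanin gene of platelets and many other cells, rose from 48.8 ± 10.2 to 119 ± 4.82 CPM (n = 3 in each group). F2rl3, a thrombin receptor gene, fell from 34.4 ± 4.54 to 18.4 ± 1.71 CPM, and Esam, an adhesion gene of platelets, endothelium and HSCs, from 36.6 ± 6.35 to 16.3 ± 1.55 CPM. The edgeR adjusted p-values of these 3 genes ran from 0.0029 for Cd9 to 0.026 for F2rl3. With the replicate number as a block F2rl3 did not pass (adjusted p = 0.066), and 2 receptor genes were higher and 2 lower. Without any 1 TMRM_High library the count was 1 higher and 1 lower, and without TMRM_Low replicate 1 or 3 it was 2 and 3 or 5 and 4. Without TMRM_Low replicate 1 or 3 the shares of all genes were 8.67% and 6.97% or 9.99% and 8.39%.

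Of 24 genes of alpha granule cargo and granule formation 5 rose, 2 fell and 17 did not pass (median 0.22). These are 20.8% higher and 8.33% lower, against 5.84% and 5.12% of all genes tested. Srgn, which encodes the proteoglycan that holds cargo in granules of many blood cells, stood at 665 ± 92.4 CPM in TMRM_Low and rose to 1476 ± 25.6 CPM (1.15 on the log2 scale, SE 0.0969). Serpine2, a protease inhibitor gene, rose from 4.50 ± 2.03 to 43.3 ± 4.89 CPM (3.26, SE 0.378). F13a1, the coagulation factor XIII A gene that monocytes also express, fell (-0.93, SE 0.195), as did Igf1, a growth factor gene (-2.68, SE 0.559). With the replicate number as a block Igf1 did not pass (edgeR adjusted p = 0.063), and 4 genes of the list were higher and 1 lower. Without any 1 TMRM_High library edgeR called 2 higher and 0 lower, and 2 were lower at an unadjusted p below 0.05 each time.

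Megakaryocyte transcription factors were split, with 5 of 21 higher, 3 lower and 13 not passing (median 0.00). These are 23.8% higher and 14.3% lower, against 5.84% and 5.12% of all genes tested. Gata2, an early factor of HSCs and mast cells, rose from 143 ± 13.2 to 219 ± 5.35 CPM, Fli1, an ETS factor, from 103 ± 8.18 to 148 ± 13.8 CPM, and Mafg, the small partner of Nfe2, from 53.9 ± 2.37 to 90.9 ± 4.50 CPM. Nfe2 itself, needed for platelet release, was at 214 ± 1.77 against 243 ± 6.47 CPM and did not pass. Lmo2, a bridging factor of HSCs and erythroid cells, fell from 764 ± 24.5 to 506 ± 7.78 CPM. Gata1, the late factor of erythroid cells and megakaryocytes, named here after its values were seen, was at 33.9, 31 and 34.1 CPM against 1.04, 1.87 and 8.38 CPM, 3.12 higher on the log2 scale (SE 0.703, edgeR adjusted p = 0.031). With the replicate number as a block 4 factors were higher and 1 lower, and without TMRM_High replicate 1, 2 or 3 it was 1, 2 or 2 higher and 1 lower each time.

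Genes of the cytoskeleton were called higher in 4 of 21 cases and lower in 0 by edgeR, and 17 did not pass (median 0.11). Higher were thus 19.0%, where 5.84% of all genes tested were higher and 5.12% lower. At an unadjusted p below 0.05, 7 of the list were lower. DESeq2 called 2 lower and limma voom 1, where they called 9.79% and 6.45% of all genes lower. Without TMRM_High replicate 1 or 3 edgeR called 2 higher (1.82% or 1.77% of all genes). Without TMRM_Low replicate 1 or 2 it called 1 lower (6.97% or 7.54% of all). Without TMRM_Low replicate 3 it called 6 higher and 5 lower (9.99% and 8.39% of all). Those that rose were Tuba8 (log2 fold change 1.88, SE 0.174) and Tuba4a (0.45, SE 0.0724), alpha tubulin genes, Plek, a protein kinase C substrate gene of platelets and leukocytes (0.80, SE 0.0798), and Flna, which anchors the von Willebrand factor receptor to actin (0.48, SE 0.106). Defining genes of mature megakaryocytes in this list were nearly absent, a choice made after their values were seen. Tubb1, the beta tubulin of platelets, was at 0.219 ± 0.135 CPM in TMRM_High and 1.23 ± 2.14 CPM in TMRM_Low libraries, and Myl9, a myosin light chain gene, at 0.133 ± 0.187 and 1.41 ± 2.34 CPM. In TMRM_Low libraries these values came almost wholly from replicate 1, with 3.70 CPM of Tubb1 and 4.11 CPM of Myl9.

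Signalling genes of platelets and thrombopoietin were called higher in 5 of 31 cases and lower in 0 by edgeR, with 26 not passing (median 0.19). Higher were thus 16.1%, where 5.84% of all genes tested were higher and 5.12% lower. At an unadjusted p below 0.05, 5 of the list were lower. DESeq2 called 3 lower and limma voom 1, where they called 9.79% and 6.45% of all genes lower. Without any 1 TMRM_High library edgeR called 1 higher (1.77% to 1.92% of all genes). Without TMRM_Low replicate 1, 2 or 3 it called 9, 7 or 7 higher (8.67%, 8.64% or 9.99% of all) and 2, 4 or 2 lower (6.97%, 7.54% or 8.39%). Rap1b encodes the small GTPase that activates platelet integrins, and its level of 224 ± 26.2 CPM in TMRM_Low rose to 481 ± 23.1 CPM in TMRM_High libraries (1.10 on the log2 scale, SE 0.0919). Rasgrp2, its exchange factor, rose too (0.45, SE 0.0795). The tyrosine kinase genes Tec (1.17, SE 0.204) and Syk (0.48, SE 0.0861), which act below the collagen receptor and in other blood cells, rose as well. Rap1b kept its call with the TMRM_High libraries summed (edgeR adjusted p = 0.030), and the other 3 did not.

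Genes known from platelet-biased or aged HSCs were called lower in 7 and higher in 3 of 21 cases with Vwf, Selp, Clu and Itgb3 left out, and 11 did not pass (median -0.38). These are 33.3% lower and 14.3% higher, against 5.12% and 5.84% of all genes tested. With those 4 genes counted 8 were lower, and 4, 5 or 4 without TMRM_High replicate 1, 2 or 3. Tgm2, a transglutaminase gene, fell from 62.5 ± 18.2 to 9.85 ± 1.17 CPM (log2 fold change -2.67, SE 0.259), and Aldh1a1, an aldehyde dehydrogenase gene, from 55.4 ± 12.8 to 15.1 ± 1.42 CPM (-1.88, SE 0.213). Cd63, a tetraspanin gene of platelet and other granules, rose from 201 ± 14.4 to 437 ± 5.36 CPM, and Gda, a guanine deaminase gene, from 16.5 ± 2.98 to 47.9 ± 1.11 CPM. Slamf1, which encodes the CD150 of the gate and is high in platelet-biased HSCs, was low in both groups, at 6.17, 5.08 and 5.35 CPM against 5.38, 8.99 and 1.03 CPM, and did not pass (0.11, SE 0.694, edgeR adjusted p = 0.94).

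Markers of other cells differed between the groups too, and not all in the same direction. Basophil and mast cell markers rose in 4 of 9 tested cases, or 7 without TMRM_Low replicate 1. Of all genes tested 5.84% were called higher, or 8.67% without that library. The summed level of these markers was 492 to 503 CPM in TMRM_High against 202 to 211 CPM in TMRM_Low libraries. Of that sum Gata2, 1 of the 4 and an HSC gene as well, held 219 ± 5.35 against 143 ± 13.2 CPM. Cpa3, a mast cell protease gene, was at 64.8 ± 3.35 against 13.3 ± 6.59 CPM, and Hdc, also called higher, at 76.7 ± 6.03 against 12.5 ± 2.46 CPM. Erythroid markers rose in 7 of 15 and fell in 1, with Car1 higher (log2 fold change 4.36, SE 0.286) and Car2 lower (-0.81, SE 0.0781). Their summed levels overlapped, 658 to 690 against 653 to 790 CPM. Car2 alone, the 1 that fell, held 316 ± 7.13 against 552 ± 54.5 CPM of these sums. Without TMRM_High replicate 1, 2 or 3 the number of erythroid markers called higher was 2, 3 or 2, where 1.82%, 1.92% or 1.77% of all genes were. The summed level of granulocyte markers, 11 of 13 higher, was 14640 to 15030 against 3550 to 3913 CPM, and that of B cell markers, 12 of 13 higher, 2119 to 2139 against 549 to 632 CPM. Macrophage and monocyte markers, 4 higher and 2 lower of 13, summed to 1211 to 1272 against 480 to 516 CPM. In this list 1 was lower without any 1 TMRM_High library or with the replicate number as a block. Of the sum Ly6c2, called higher, held 655 ± 14.3 against 124 ± 8.89 CPM. C1qb, called lower, was at 0.764 ± 0.0948 against 9.55 ± 3.70 CPM. Vcam1 and Slc40a1, of the same list, went the other way from C1qb and were called higher. Vcam1 was at 94.1 ± 3.47 against 0.566 ± 0.534 CPM, and Slc40a1 at 33.1 ± 5.72 against 0.0594 ± 0.0579 CPM. The mast cell protease gene Tpsb2 had no count in any library. The part of these cells in the levels of Pf4 and Itga2b was not tested.

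Endothelial markers bear on Vwf and Selp. Of 11 tested, 1 rose and 3 fell, or 9.09% and 27.3%, against 5.84% and 5.12% of all genes tested. The summed level of the list was 293 to 301 CPM in TMRM_High and 434 to 463 CPM in TMRM_Low libraries. Most of it came from genes that HSCs also express, such as Pecam1 (92.5 ± 0.851 against 88.0 ± 3.87 CPM, not passing), Egfl7 (90.3 ± 2.89 against 155 ± 21.7 CPM) and Eng (log2 fold change -0.91, SE 0.118), and the last pair fell. The gene that rose was Plvap, which encodes a protein of endothelial pores, with 32, 28 and 30 counts in TMRM_High libraries and 0 in each TMRM_Low library (edgeR adjusted p = 0.0097). Without TMRM_High replicate 1, 2 or 3 Plvap did not pass (adjusted p = 0.070, 0.069 or 0.076), and 2 markers were lower each time. Other markers, named after their values were seen, ranged from plain to scarce. Tek, an angiopoietin receptor gene that HSCs also express, was at 9.26 ± 1.24 and 10.3 ± 5.46 CPM, and Emcn, the endomucin gene, at 5.28 ± 0.380 and 12.6 ± 5.74 CPM, and neither passed. The endothelial cadherin gene Cdh5 was at 0.271 ± 0.146 and 0.0181 ± 0.0314 CPM, and Lyve1 had counts in a single library. The part of endothelial cells in the levels of Vwf and Selp was not tested.

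**Figure D5:**
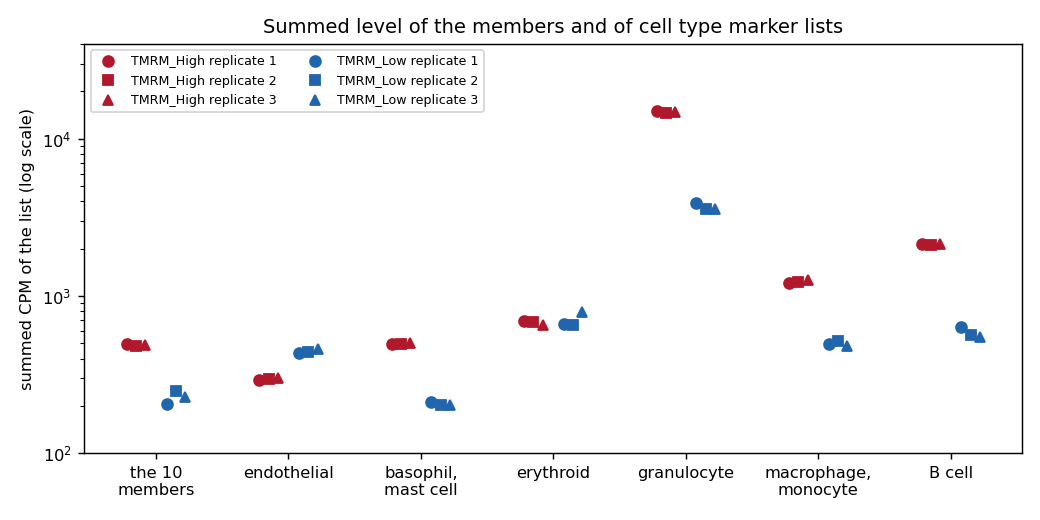
Summed CPM (log axis) of the 10 genes and of 6 lists of cell type markers in each library, TMRM_High in red and TMRM_Low in blue. The groups separate for every list except the erythroid one, whose sum is in large part Car2. Of the sum of the 10 genes, Pf4 held a mean of 189 against 26.0 CPM and Itga2b of 141 against 59.9 CPM. The endothelial list alone is lower in TMRM_High libraries.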

How the data were processed

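RNA was measured in 3 TMRM_High and 3 TMRM_Low libraries of sorted HSCs, by a low-input method adapted from a single-cell protocol, per the labels' protocols. The submitters' processing notes name the build GRCm38, the trimmer Trim Galore 0.5.0 and, for quantification, Salmon with 0.03.1 as its version. Their annotation is not given in the sources used here, nor are settings. The authors deposited estimated counts per gene, unscaled for depth and partly not whole, which were rounded. Symbols were matched for 27728 of 28786 IDs, and positions and lengths come from GENCODE M21. Such libraries mark no strand and hold no molecular identifiers, so intervals and floors cover counting error only.

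Genes were kept by filterByExpr (13662), scaled by TMM and tested with edgeR 4.0.16 in R 4.3.3 (glmQLFit and glmQLFTest, robust, group only, two-sided), with Benjamini-Hochberg adjustment over all tested genes and calls below 0.05. CPM use the TMM-scaled library sizes, and the SE is the log2 fold change divided by the root of F. On simulated counts (13662 genes in 3 simulations), 30.3% of genes changed 2-fold and 58.3% of those changed 4-fold were called, and 0.0322% of unchanged ones. A gene that did not pass can thus still differ by several-fold. The simulation gave both groups the same spread. In the data the coefficient of variation beyond counting noise was 7.28% in TMRM_High and 42.5% in TMRM_Low libraries, so these rates need not hold here.

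The members, gene lists and tests were chosen with earlier results of these data known. Named were all members and, in each list, up to 4 called genes of smallest p and up to 2 others of highest level, fewer where space asked; exceptions are marked. A gene that the rule names is not reported here. As alternatives, libraries were scaled by RLE, by upper quartile or by totals, the filter was dropped or raised to a mean count of 50, and the test was replaced by DESeq2 1.42.0 or limma 3.58.1 voom. Further alternatives were a replicate block, an adjusted p below 0.10, each library left out, the TMRM_High libraries summed and, added after the data were seen, Gp1bb with Sept5.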

Additional observations from a re-analysis of the deposited data

How the results depend on the processing

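Over all genes, called higher or lower were 1324 and 1337 with DESeq2, 1190 and 1138 at an adjusted p below 0.10, and 80 and 34 with the TMRM_High libraries summed. With 1 library left out they ran from 250 to 1398 higher and from 181 to 1174 lower. Whether the replicate numbers pair the libraries is not stated. Same-numbered ones correlated at -0.01, 0.02 and 0.02 in their deviations, and differently numbered ones at -0.03 to 0.01. TMRM_High replicates 2 and 3 correlated best with their own number, and replicate 1 did not. Deviations from the mean of 3 libraries are too few to exclude a pairing. With the replicate number as a block 582 genes were higher and 449 lower, and the calls of the 10 genes did not change, while F2rl3 (adjusted p = 0.066) and Igf1 (0.063) missed the threshold. Of those 10, the number called higher was 3 with DESeq2 (background 9.69%) and with limma voom (5.94%), 1 with the TMRM_High libraries summed (0.525%), and 2 to 4 with 1 library left out, 4 being without TMRM_Low replicate 2 (8.64%). The number called lower was 0 with the libraries summed and 0 to 1 with 1 library left out. In the platelet lists, 10 to 34 were higher and 6 to 22 lower with 1 library left out, and 3 and 0 with the libraries summed. Summing leaves 1 TMRM_High library, assumed to vary like the TMRM_Low ones. Itga2b then missed the threshold (edgeR adjusted p = 0.095), as did Clu (0.92). The log2 fold change of Selp ran from -0.23 to 0.07 with 1 library left out (0.0686 without TMRM_Low replicate 2) and that of Slamf1 from -0.37 (without TMRM_Low replicate 3) to 0.79, neither passing. That of Cd48 ran from -0.0183 (without TMRM_Low replicate 2) to 0.21 and that of Kit from -0.0694 (without TMRM_Low replicate 2) to 0.24, neither passing. With the longest transcript as length, levels in CPM per kilobase were 321.1 for Pf4, 41.0 for Itga2b, 2.44 for Vwf, 2.14 for Clu and 22.1 for Selp in TMRM_High, and 17.4 for Itga2b, 7.31 for Clu and 23.6 for Selp in TMRM_Low libraries. Of 799 fold changes of 50 genes under alternatives, 718 kept direction and side of the threshold. Depth limits Gp6, and the counts of Ppbp and Gp1bb below 20 in TMRM_Low libraries.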
